A study of Mus musculus with 8 samples.

Results

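The genes described here are 38 genes of protein folding and stress signalling in the endoplasmic reticulum (ER). They were chosen by gene symbol, with earlier results of these data known. All 38 were among the 13245 genes of the deposited table, and each averaged 1 CPM or more, the level required for testing. Their levels come from RNA-seq of lymph node CD8 T cells of the mouse that were sorted as Ly6C+CXCR3+, which the submitters call memory phenotype. The tested mice were CD103Tg, which overexpress CD103 (the alpha E integrin, gene Itgae), and the controls were C57BL/6 mice, labelled B6. There were 4 libraries in each group. The labels give neither the promoter that drives the transgene nor the age of the mice, and do not say if each replicate is a different animal. The p-values therefore reflect the spread among the samples at hand. The summed level of 4 Y-linked genes was 54.0 to 243.4 CPM in CD103Tg, and in B6 it was 277 to 321.8 CPM in 3 libraries and 0.0384 CPM in replicate 3. B6 replicate 3 thus came from female mice and so from other animals than the rest of its group, which held male cells. All 4 CD103Tg libraries lay below those 3 B6 libraries in this sum, so sex may also differ between the groups.

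Proteins bound for the cell surface or for secretion enter the ER through the Sec61 channel. There they meet the chaperone BiP (Hspa5) and its J-domain partners, the lectin chaperones calnexin and calreticulin, and the disulfide isomerases. When unfolded proteins accumulate, the sensors IRE1 (Ern1), PERK (Eif2ak3) and ATF6 signal to the nucleus through the transcription factors XBP1, ATF4 and the cleaved ATF6, which raise folding capacity and the machinery that sends misfolded proteins to the proteasome. In T cells the same machinery assembles the T cell receptor, integrins and MHC class I, and its genes are known to be induced when cells are activated.

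The CD103Tg libraries carried more transcript of the folding genes than the B6 libraries, by a modest amount and not in every class. Of the 38 genes, 18 (47.4%) were higher in CD103Tg and 2 (5.26%) were lower at an adjusted p under 0.05 (limma, Benjamini-Hochberg over all 11503 genes tested). Over all genes tested, 17.4% were called higher and 13.8% lower, 31.2% in either direction. The median log2 fold change of the 38 genes was 0.18 on the log2(CPM + 1) scale, against -0.01 for all genes tested, and 30 of the 38 values were positive. In 17 of the 38 genes every CD103Tg library lay above every B6 library, and in 2 every CD103Tg library lay below, against 17.4% and 13.6% of all genes tested. The levels of the 38 genes summed to 7921, 8523, 7589 and 7919 CPM in the CD103Tg libraries and to 6349, 7053, 6932 and 6364 CPM in the B6 libraries. The groups did not overlap in this sum, which was 0.791% of the listed signal in CD103Tg and 0.674% in B6. In bulk samples, fewer cells of a type and less RNA per cell cannot be told apart.

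**Figure D1:**
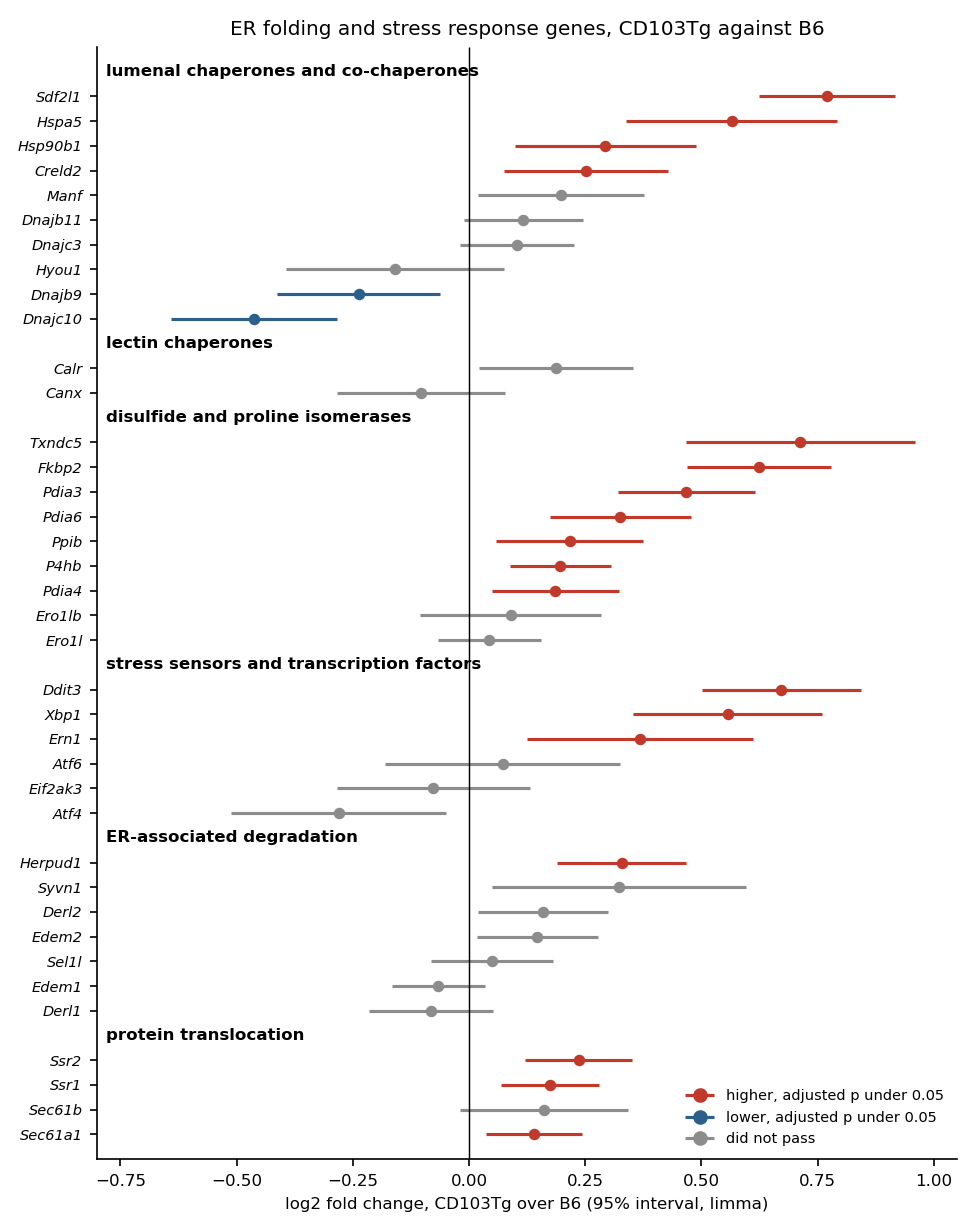
Log2 fold change of each of the 38 genes, CD103Tg over B6, on the log2(CPM + 1) scale with its 95% confidence interval, grouped by role and marked by whether the gene was called. Values run from -0.46 for Dnajc10 to 0.77 for Sdf2l1, and 18 genes were called higher and 2 lower.

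The libraries had 50187279 to 56371476 estimated reads over the listed genes, and 1 read was worth 0.0171 to 0.0203 CPM. Itgae stood at 4460 ± 861 CPM in CD103Tg and 76.1 ± 65.5 CPM in B6 (mean ± SD, n = 4 each), which fits the labels. Cd247, the zeta chain of the T cell receptor complex, was also higher, at 8711 ± 1001 CPM in CD103Tg and 345 ± 89.2 CPM in B6, so effects of CD103 and of other features of the CD103Tg mice cannot be told apart. Within B6, replicate 4 was highest in both genes. Itgae had 41.4, 51.4, 37.5 and 174 CPM in the B6 libraries, and Cd247 had 303, 285, 315 and 478 CPM. The cause of the higher values in B6 replicate 4 was not tested. The 11 genes of CD8 T cell identity and of the sort were all listed. Of these, 4 (36.4%) fell and none rose, beside 13.8% lower and 17.4% higher over all genes tested. Trac, the constant region of the T cell receptor alpha chain, fell to 642 ± 31.7 CPM in CD103Tg, against 1007 ± 87.1 CPM in B6 (adjusted p = 4.9e-05), and Trbc1, Trbc2 and Cd8a fell by 0.24 to 0.32 on the log2 scale. All 32 genes of a cell cycle list were called higher, with a median log2 fold change of 1.86, and the part of cell division in the differences below was not tested.

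Among the 10 lumenal chaperones and co-chaperones, 4 (40%) rose and 2 (20%) fell, beside 17.4% higher and 13.8% lower over all genes tested. Sdf2l1 (GRCm38 chr16:17130138-17132383), which joins a complex with BiP and the J-domain protein ERdj3, had 75.5, 84.3, 73.0 and 78.9 CPM in the CD103Tg libraries and 43.1, 47.9, 47.8 and 42.4 CPM in the B6 libraries. Every CD103Tg library was far above every B6 library. This was the largest log2 fold change of the 38, 0.77 ± 0.07 (± SE here and below, limma adjusted p = 1.03e-05). Hspa5 (chr2:34771970-34777547), which encodes the Hsp70 chaperone BiP, had 977, 1232, 1002 and 1092 CPM in the CD103Tg libraries and 606, 853, 728 and 728 CPM in the B6 libraries. These groups were also separate, and BiP rose 1.48-fold in mean level (log2 fold change 0.56 ± 0.10, adjusted p = 0.00171). Hsp90b1, the ER member of the Hsp90 family, had 589, 697, 579 and 645 CPM in CD103Tg and 449, 577, 551 and 476 CPM in B6. The lowest CD103Tg library was barely above the highest B6 library (0.29 ± 0.09, adjusted p = 0.0269), and the call was lost without CD103Tg replicate 2 or 4 or B6 replicate 1 or 4 (adjusted p = 0.0545 to 0.0828). Creld2, a secreted and ER-resident protein induced by ER stress, averaged 59.0 ± 5.98 CPM in CD103Tg and 49.3 ± 3.78 CPM in B6 with overlapping libraries (0.25 ± 0.08, adjusted p = 0.0347). It missed the threshold without CD103Tg replicate 1 or 2 or B6 replicate 1, 2 or 4 (adjusted p = 0.0591 to 0.101).

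The 2 genes that fell both encode J-domain partners of BiP. Dnajc10 (ERdj5, chr2:80315466-80354043), a J-domain protein that also reduces disulfides of proteins marked for degradation, had 74.9, 67.7, 71.5 and 73.2 CPM in CD103Tg and 118, 98.3, 94.1 and 88.7 CPM in B6. Every CD103Tg library was below every B6 library, and the mean fell to 71.8 ± 3.06 CPM, against 99.8 ± 12.8 CPM in B6 (log2 fold change -0.46 ± 0.08, adjusted p = 0.00137). Dnajb9 (ERdj4), a J-domain protein that is a known target of XBP1, had 13.1, 13.1, 12.2 and 14.2 CPM in CD103Tg and 15.1, 15.1, 16.7 and 15.6 CPM in B6. The groups were separate but close (-0.24 ± 0.08, adjusted p = 0.0418), and the call held without CD103Tg replicate 4 but not without any other single library (adjusted p = 0.0588 to 0.121). The other 4 genes of the class were not called. Dnajb11 (ERdj3) averaged 147 ± 5.13 CPM in CD103Tg and 136 ± 9.26 CPM in B6, and Dnajc3 (p58IPK), a co-chaperone, 279 ± 11.3 CPM in CD103Tg and 260 ± 15.3 CPM in B6. Manf, a small ER protein released under stress, had 65.0 ± 4.44 CPM in CD103Tg and 56.7 ± 6.09 CPM in B6, and Hyou1, a nucleotide exchange factor of BiP, 31.4 ± 2.90 CPM in CD103Tg and 35.4 ± 5.07 CPM in B6. Their adjusted p lay between 0.0882 and 0.29. Manf passed as higher without B6 replicate 3 (adjusted p = 0.0381) and Hyou1 as lower without B6 replicate 4 (adjusted p = 0.0345).

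Neither lectin chaperone was called. Calnexin (Canx), the membrane-bound lectin that retains newly made glycoproteins, had 442, 451, 387 and 473 CPM in CD103Tg and 462, 516, 499 and 410 CPM in B6. Its log2 fold change was -0.10 ± 0.08, with a 95% interval of -0.28 to 0.08 (adjusted p = 0.374). Calreticulin (Calr), the soluble counterpart, had 530, 520, 485 and 511 CPM in CD103Tg and 427, 471, 511 and 396 CPM in B6. One B6 library reached the CD103Tg range (0.19 ± 0.08, adjusted p = 0.0844), and Calr passed without that library, B6 replicate 3 (adjusted p = 0.0222), with quantile normalization (adjusted p = 0.0438) and with the Y-linked level as a covariate (adjusted p = 0.0494).

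Of the 9 disulfide and proline isomerases, 7 (77.8%) rose and none fell, with a median log2 fold change of 0.22. Over all genes tested, 17.4% were called higher and 13.8% lower. Txndc5 (ERp46, chr13:38500079-38528824), a disulfide isomerase, had 402, 393, 335 and 269 CPM in the CD103Tg libraries and 224, 201, 196 and 222 CPM in the B6 libraries. The CD103Tg libraries varied widely but all lay above B6, and the mean was 1.66-fold higher (log2 fold change 0.71 ± 0.11, adjusted p = 0.00064). Fkbp2 (chr19:6977741-6980501), a proline isomerase of the FK506-binding family, had 29.8, 32.2, 28.7 and 30.3 CPM in CD103Tg and 19.1, 18.1, 20.8 and 19.0 CPM in B6. Its groups were tight and far apart (0.62 ± 0.07, adjusted p = 6.34e-05). Pdia3 (ERp57, chr2:121413775-121438687), which works with calnexin and calreticulin and is part of the MHC class I loading complex, had 1207, 1298, 1125 and 1184 CPM in CD103Tg and 799, 922, 916 and 844 CPM in B6. It rose 1.38-fold in mean level with no overlap (0.47 ± 0.07, adjusted p = 0.000341). Pdia6, a disulfide isomerase bound to BiP, rose to 238 ± 12.8 CPM in CD103Tg, against 190 ± 17.6 CPM in B6 (0.33 ± 0.07, adjusted p = 0.00442). P4hb, the founding protein disulfide isomerase, rose to 316 ± 11.1 CPM in CD103Tg, against 276 ± 10.7 CPM in B6 (0.20 ± 0.05, adjusted p = 0.0111). Libraries of both genes were separate between the groups.

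Pdia4 (ERp72) and the cyclophilin Ppib were called higher with overlapping libraries. Pdia4 averaged 309 ± 17.1 CPM in CD103Tg and 272 ± 19.0 CPM in B6 (0.19 ± 0.06, adjusted p = 0.0415). Its call was lost without CD103Tg replicate 1, 2 or 3 or B6 replicate 1 or 4 (adjusted p = 0.0817 to 0.121), and with equal totals or quantile normalization (adjusted p = 0.0582 and 0.0624). Ppib averaged 177 ± 10.2 CPM in CD103Tg and 152 ± 14.7 CPM in B6 (0.22 ± 0.07, adjusted p = 0.04). The call held without B6 replicate 3 and was lost without any other single library (adjusted p = 0.0526 to 0.112) and with quantile normalization (adjusted p = 0.0557). Ppib also shares 24.96% of its exon bases with Snx22 on the opposite strand, and the libraries do not mark strand. Likewise Hsp90b1, Ssr2 and Txndc5 share 15.7%, 12.8% and 11.9% of their exon bases with other annotated genes, and reads there cannot be assigned by strand. The oxidases that reoxidise the isomerases were not called. Ero1l had 88.0 ± 3.60 CPM in CD103Tg and 85.3 ± 2.03 CPM in B6, with a 95% interval of the log2 fold change from -0.07 to 0.15. Ero1lb had 28.1 ± 3.03 CPM in CD103Tg and 26.3 ± 1.89 CPM in B6, with an interval from -0.11 to 0.28.

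**Figure D2:**
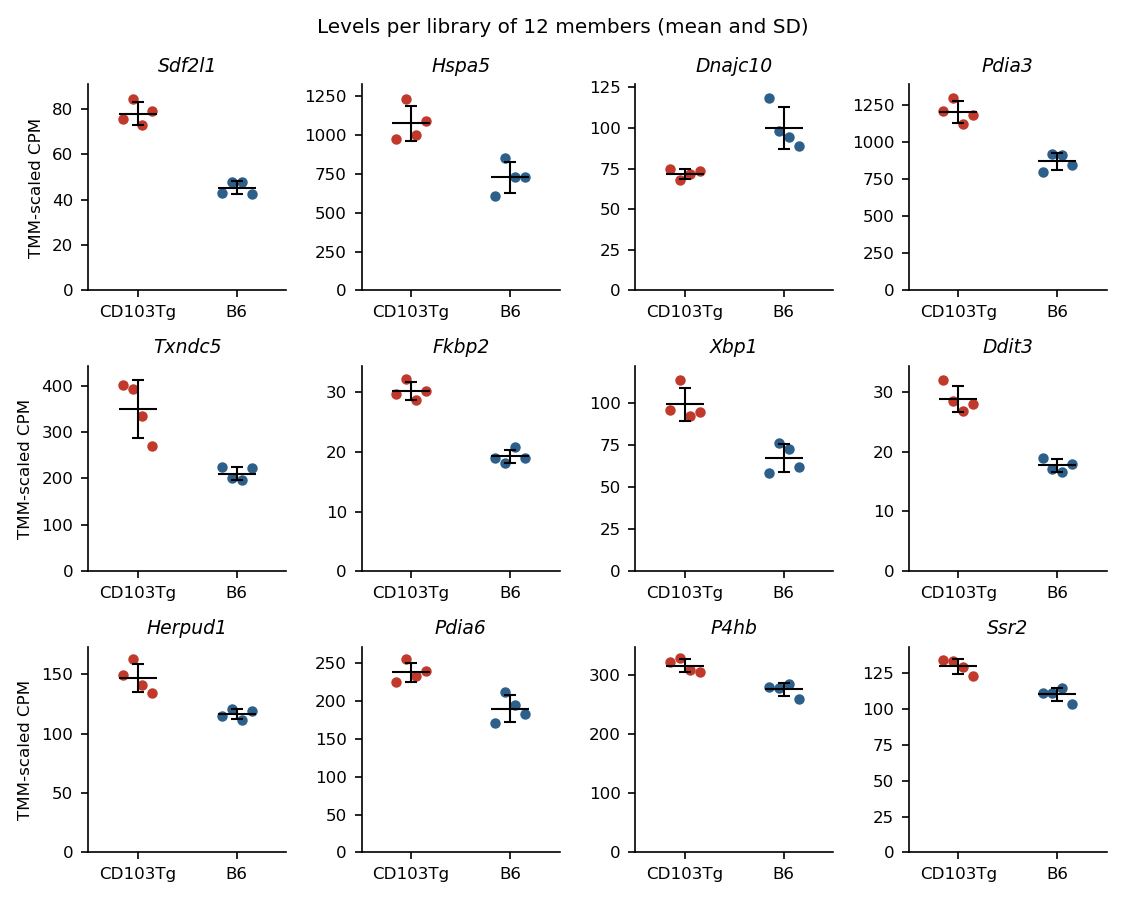
Level in TMM-scaled CPM of 12 of the genes in each library, with CD103Tg left of B6, where each point is 1 library and the lines give the mean and its SD. The 12 are the genes whose calls held under each of the 21 alternative settings, so they were picked by their outcome. For 11 of them every CD103Tg library lies above every B6 library, and for Dnajc10 every CD103Tg library lies below. Of all 38 genes, 17 lie wholly above and 2 wholly below, against 17.4% and 13.6% of all genes tested.

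Of the 6 sensors and transcription factors, 3 (50%) rose and 3 were not called, beside 17.4% called higher over all genes tested. Ddit3 (CHOP, chr10:127290774-127296288), a transcription factor induced downstream of PERK and ATF4, had 31.96, 28.5, 26.8 and 27.9 CPM in the CD103Tg libraries and 19.0, 17.1, 16.6 and 17.9 CPM in the B6 libraries. The groups were well apart (0.67 ± 0.08, adjusted p = 7.19e-05). Ddit3 shares 10.9% of its exon bases with other annotated genes, including Mars on the opposite strand, itself higher by 0.27 ± 0.06 (adjusted p = 0.00853) and named here because of the overlap. Xbp1 (chr11:5520659-5525893) had 96.3, 114, 92.8 and 95.1 CPM in CD103Tg and 58.7, 76.2, 72.9 and 62.3 CPM in B6. It rose 1.47-fold in mean level without overlap (0.56 ± 0.09, adjusted p = 0.000932), and the gene-level values do not separate its spliced, active form from the unspliced one. Ern1, which encodes IRE1, the sensor that splices Xbp1 RNA, had 5.49, 4.44, 5.19 and 5.19 CPM in CD103Tg and 3.17, 3.82, 4.03 and 3.82 CPM in B6. These low levels were separate (0.37 ± 0.11, adjusted p = 0.0265), but the call was lost without CD103Tg replicate 1, 3 or 4 or B6 replicate 1 (adjusted p = 0.0502 to 0.0746) and with quantile normalization (adjusted p = 0.0608).

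In the other branches, the sensors Eif2ak3 and Atf6 and the factor Atf4 were not called, while Ddit3 was called higher, as given above. Atf4, the factor translated when PERK or related kinases phosphorylate eIF2 alpha, had 67.9, 53.5, 65.6 and 66.3 CPM in CD103Tg and 77.1, 63.0, 81.0 and 88.5 CPM in B6. CD103Tg replicate 2 was the lowest of the 8 libraries and B6 replicate 2 the lowest of its group (log2 fold change -0.28 ± 0.11, 95% interval -0.51 to -0.05, adjusted p = 0.0646). Without B6 replicate 2 Atf4 passed as lower (adjusted p = 0.0125). Eif2ak3 had 29.1 ± 4.33 CPM in CD103Tg and 30.5 ± 0.847 CPM in B6, with an interval from -0.28 to 0.13. Atf6 had 20.9 ± 1.98 CPM in CD103Tg and 19.9 ± 3.04 CPM in B6, with an interval from -0.18 to 0.33.

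Of the 7 genes of ER-associated degradation, Herpud1 rose (14.3%, beside 17.4% over all genes tested) and the other 6 were not called. Herpud1 (chr8:94386438-94395377), which encodes a membrane protein of the degradation complex, had 149, 162, 141 and 134 CPM in the CD103Tg libraries and 115, 121, 111 and 119 CPM in the B6 libraries. The groups were separate (0.33 ± 0.06, adjusted p = 0.00233). The ubiquitin ligase Syvn1 (HRD1) had 42.1, 59.4, 46.3 and 52.7 CPM in CD103Tg and 31.7, 46.5, 41.2 and 40.2 CPM in B6. Its fold was similar to that of Herpud1 but its libraries overlapped (0.32 ± 0.12, adjusted p = 0.0719), and it passed without CD103Tg replicate 1 (adjusted p = 0.0379) or B6 replicate 2 (adjusted p = 0.0409). Sel1l, the adaptor of that ligase, had 138 ± 9.68 CPM in CD103Tg and 133 ± 5.46 CPM in B6. Edem2, a mannosidase that trims glycoproteins for degradation, had 79.9 ± 3.32 CPM in CD103Tg and 72.1 ± 4.30 CPM in B6, and Derl2, a derlin of the membrane channel, 78.2 ± 3.94 CPM in CD103Tg and 70.0 ± 4.87 CPM in B6. Both were separate between groups and missed the threshold (adjusted p = 0.0835 and 0.0822). Their relatives had negative log2 fold changes without a call, Edem1 at -0.07 ± 0.05 and Derl1 at -0.08 ± 0.06.

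Of the 4 genes of protein translocation, 3 (75%) rose by small amounts, beside 17.4% called higher over all genes tested. Ssr2, a subunit of the translocon-associated complex, had 134, 133, 129 and 123 CPM in CD103Tg and 111, 111, 114 and 104 CPM in B6. Its 2 groups were narrow and separate (0.24 ± 0.05, adjusted p = 0.00546). Ssr1, another subunit of that complex, had 153 ± 4.72 CPM in CD103Tg and 136 ± 4.62 CPM in B6 (0.17 ± 0.05, adjusted p = 0.0172), and was lost without CD103Tg replicate 1 (adjusted p = 0.0547) and with quantile normalization (adjusted p = 0.0509). Sec61a1, the pore of the channel, had 301 ± 10.3 CPM in CD103Tg and 273 ± 7.04 CPM in B6 (0.14 ± 0.05, adjusted p = 0.041). This call was lost without any one library (adjusted p = 0.0523 to 0.121) and under several other settings. Sec61b, a small subunit of the channel, had 74.7 ± 3.15 CPM in CD103Tg and 67.0 ± 8.50 CPM in B6 (0.16 ± 0.08, adjusted p = 0.165), and passed without B6 replicate 3 (adjusted p = 0.0305).

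**Figure D3:**
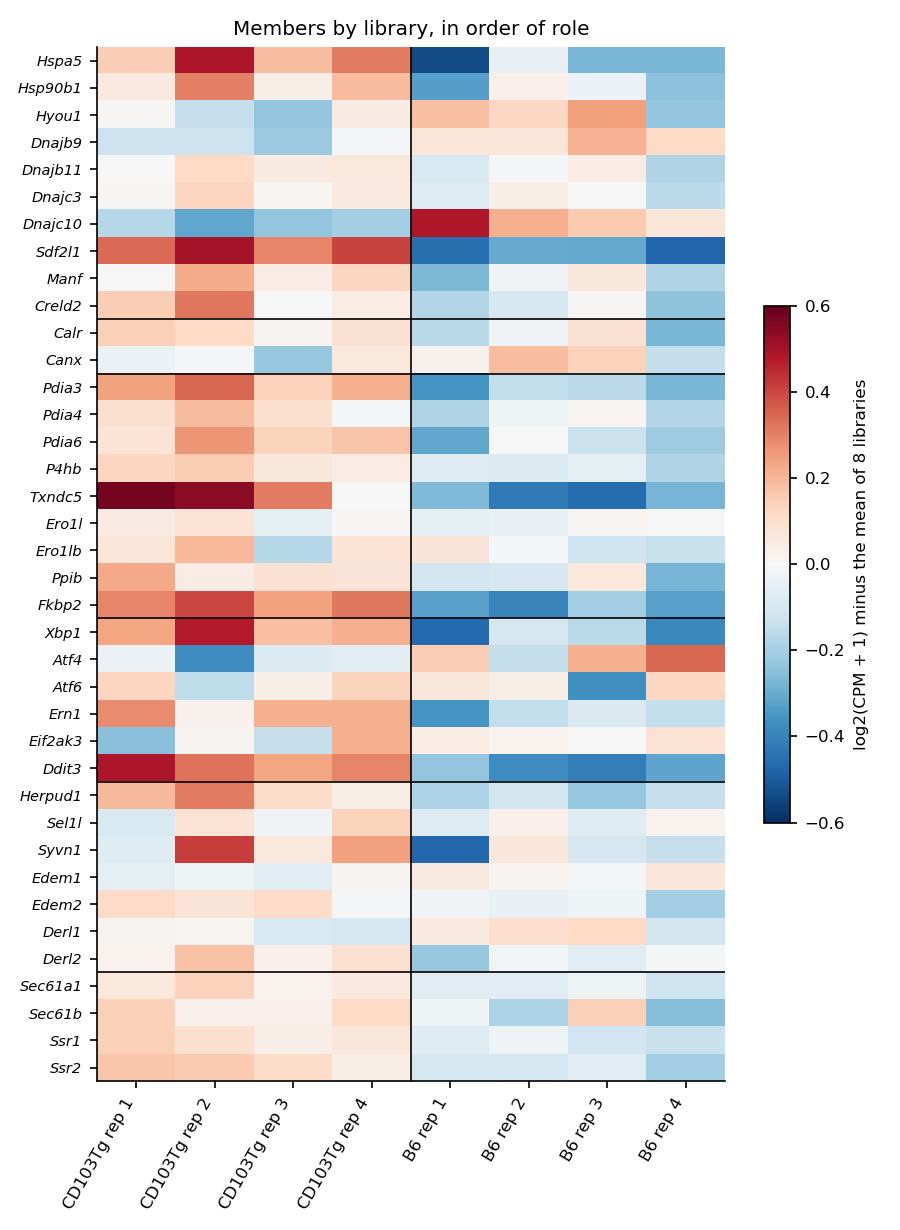
Difference of each library from the mean of the 8 libraries, in log2(CPM + 1), for the 38 genes in rows ordered by role, with the 4 CD103Tg libraries left of the 4 B6 libraries. Sdf2l1, Txndc5, Ddit3 and Fkbp2 have the largest log2 fold changes (0.77, 0.71, 0.67 and 0.62), and Dnajc10 has the most negative one (-0.46).

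The order of abundance within the group of genes was much the same in both genotypes. Per kilobase of exon, Pdia3 was the most abundant of the 38, at 383.4 CPM per kb in CD103Tg and 277.2 CPM per kb in B6, followed by Hspa5 at 254.3 CPM per kb in CD103Tg and 172.4 CPM per kb in B6. Calr, Hsp90b1 and Pdia4 were next in both genotypes. Txndc5 was the 8th gene in CD103Tg and the 14th in B6, and Sdf2l1 the 9th in CD103Tg and the 18th in B6. The sensors were at the foot of the order, with Ern1 at 0.621 CPM per kb in CD103Tg and 0.454 CPM per kb in B6.

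The ER stress response is read through short DNA elements near gene starts. The ER stress response element (ERSE), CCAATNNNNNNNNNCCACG, binds ATF6 together with the factor NF-Y, and the related ERSE-II (ATTGG, any 1 base, then CCACG) was described in Herpud1. RefSeq windows of 300 bases (GRCm38.p6, 250 before to 50 after each start) matched 32 of the 38 genes, and both strands were searched. The ERSE was found in 9 of the 32 genes, against 0.137% of the 27025 genes with a window. It was in 4 of 16 genes called higher, in 5 of 14 not called and in neither of the 2 genes called lower. The matches are shown because the genes that carry the element include both called and uncalled ones, with the fixed bases in capitals, read 5′ to 3′ on the strand that holds the match. Hspa5, Hsp90b1 (the match nearer its start), Creld2 and Pdia6 were called higher, and Calr, Canx, Dnajc3, Ero1lb and Syvn1 were not called.
Hspa5: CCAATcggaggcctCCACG
Hsp90b1: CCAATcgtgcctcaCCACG
Creld2: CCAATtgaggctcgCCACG
Pdia6: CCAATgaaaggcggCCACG
Calr: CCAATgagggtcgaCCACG
Canx: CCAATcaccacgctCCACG
Dnajc3: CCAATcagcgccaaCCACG
Ero1lb: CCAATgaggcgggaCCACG
Syvn1: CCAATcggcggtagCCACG

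The 250 bases before the start are shown for 5 genes of contrasting behaviour, with matches of the motifs searched in capitals. Hspa5 (chr2:34771840-34772089, plus strand) has 1 ERSE, Hsp90b1 (chr10:86705445-86705694, minus strand) has 2, on opposite strands, and Canx (chr11:50325674-50325923, minus strand), which was not called, has 1. Herpud1 (chr8:94386179-94386428, plus strand) has an ERSE-II and a CARE motif. Sdf2l1 (chr16:17132384-17132633, minus strand), with the largest log2 fold change of the 38, has none of the motifs in this window.
Hspa5: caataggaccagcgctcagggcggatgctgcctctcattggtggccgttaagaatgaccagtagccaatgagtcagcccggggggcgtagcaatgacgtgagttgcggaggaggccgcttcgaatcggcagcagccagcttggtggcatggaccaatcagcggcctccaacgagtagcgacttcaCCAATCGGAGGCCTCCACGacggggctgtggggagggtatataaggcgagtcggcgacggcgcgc
Hsp90b1: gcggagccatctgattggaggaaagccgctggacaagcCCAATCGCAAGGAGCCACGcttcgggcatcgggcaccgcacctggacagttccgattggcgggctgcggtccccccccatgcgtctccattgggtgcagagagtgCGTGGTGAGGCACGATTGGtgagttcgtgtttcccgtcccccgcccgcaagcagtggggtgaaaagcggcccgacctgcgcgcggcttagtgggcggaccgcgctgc
Canx: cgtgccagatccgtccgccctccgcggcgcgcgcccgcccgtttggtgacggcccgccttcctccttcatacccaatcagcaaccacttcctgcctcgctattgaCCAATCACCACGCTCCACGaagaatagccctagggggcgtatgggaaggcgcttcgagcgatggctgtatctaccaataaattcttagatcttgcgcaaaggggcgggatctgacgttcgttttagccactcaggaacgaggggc
Herpud1: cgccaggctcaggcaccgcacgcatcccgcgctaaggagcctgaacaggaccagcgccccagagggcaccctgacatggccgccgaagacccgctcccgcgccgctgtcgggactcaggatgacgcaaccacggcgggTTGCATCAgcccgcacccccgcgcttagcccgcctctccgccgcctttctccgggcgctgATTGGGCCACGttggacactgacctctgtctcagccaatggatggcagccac
Sdf2l1: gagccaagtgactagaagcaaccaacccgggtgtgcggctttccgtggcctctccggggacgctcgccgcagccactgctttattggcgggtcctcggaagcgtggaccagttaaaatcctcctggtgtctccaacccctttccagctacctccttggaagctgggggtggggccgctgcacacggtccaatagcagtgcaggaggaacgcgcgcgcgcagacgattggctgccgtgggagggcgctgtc

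The other motifs were rarer among the 32 genes. ERSE-II was in 2 of them, Herpud1 and Dnajb11, against 0.0444% of all genes with a window. The XBP1-binding element TGACGTGG was in 1, Txndc5, against 0.714% of those genes. The CARE motif TGATGNAA, bound by ATF4 and CHOP, was in 2, Herpud1 and Txndc5, against 4.51% of those genes. The windows of Sdf2l1, Ddit3, Xbp1, Fkbp2 and Pdia3, all called higher, held none of the motifs. A match is a run of letters and not a measured site.

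Among other ER genes, the share called higher was close to that of all genes tested. Of 125 tested genes in 4 lists of other folding, degradation, translocation and export factors, 19 (15.2%) rose and 7 (5.6%) fell, with a median log2 fold change of 0.01. Among folding factors, the calcium-binding protein Rcn1 rose to 151 ± 24.4 CPM in CD103Tg, against 82.7 ± 2.63 CPM in B6 (0.85 ± 0.10, adjusted p = 9.08e-05), while Ppic, a cyclophilin related to Ppib, fell to 5.54 ± 2.28 CPM in CD103Tg, against 27.4 ± 5.54 CPM in B6 (-2.16 ± 0.21, adjusted p = 2.59e-05). Among degradation factors, the ubiquitin-conjugating enzyme Ube2g2 rose by 0.40 ± 0.07 (adjusted p = 0.00109), as did the segregase Vcp by 0.17 ± 0.05 (adjusted p = 0.028), and Fam8a1, a cofactor of HRD1, fell by 0.46 ± 0.09 (adjusted p = 0.00337). The signal peptidase subunit Sec11c rose to 180 ± 8.44 CPM in CD103Tg, against 142 ± 9.61 CPM in B6 (adjusted p = 0.00142), and Srp54a, of the signal recognition particle, had a log2 fold change of -0.34 ± 0.06 (adjusted p = 0.00199). In export, the cargo lectin Lman2 rose by 0.34 ± 0.06 (adjusted p = 0.000848) and the coat subunit Sec24a by 0.48 ± 0.11 (adjusted p = 0.00725).

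Stress signalling outside the ER gave mixed counts, beside 17.4% higher and 13.8% lower over all genes tested. Of 21 other stress regulators, 7 (33.3%) rose and 1 (4.76%) fell, and those that rose included Eif2ak2 (PKR), a kinase of eIF2 alpha that responds to double-stranded RNA, at 61.6 ± 7.54 CPM in CD103Tg and 32.1 ± 2.23 CPM in B6 (0.91 ± 0.09, adjusted p = 1.95e-05). Of 30 targets of the integrated stress response, 9 (30%) rose and 1 (3.33%) fell, and their median log2 fold change was 0.11. Sesn2, a stress-induced regulator of mTORC1, rose to 13.1 ± 1.53 CPM in CD103Tg, against 6.30 ± 0.162 CPM in B6 (0.95 ± 0.10, adjusted p = 3.17e-05), while Bbc3 (PUMA), a pro-apoptotic protein, fell to 31.4 ± 7.27 CPM in CD103Tg, against 52.1 ± 6.75 CPM in B6 (-0.73 ± 0.14, adjusted p = 0.00248). Of 21 cytosolic and mitochondrial heat shock genes, 1 (4.76%) rose, Dnajb6, and 1 fell, Hspa9. The lists were assembled with earlier results of these data known, and the difference between them was not tested.

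**Figure D4:**
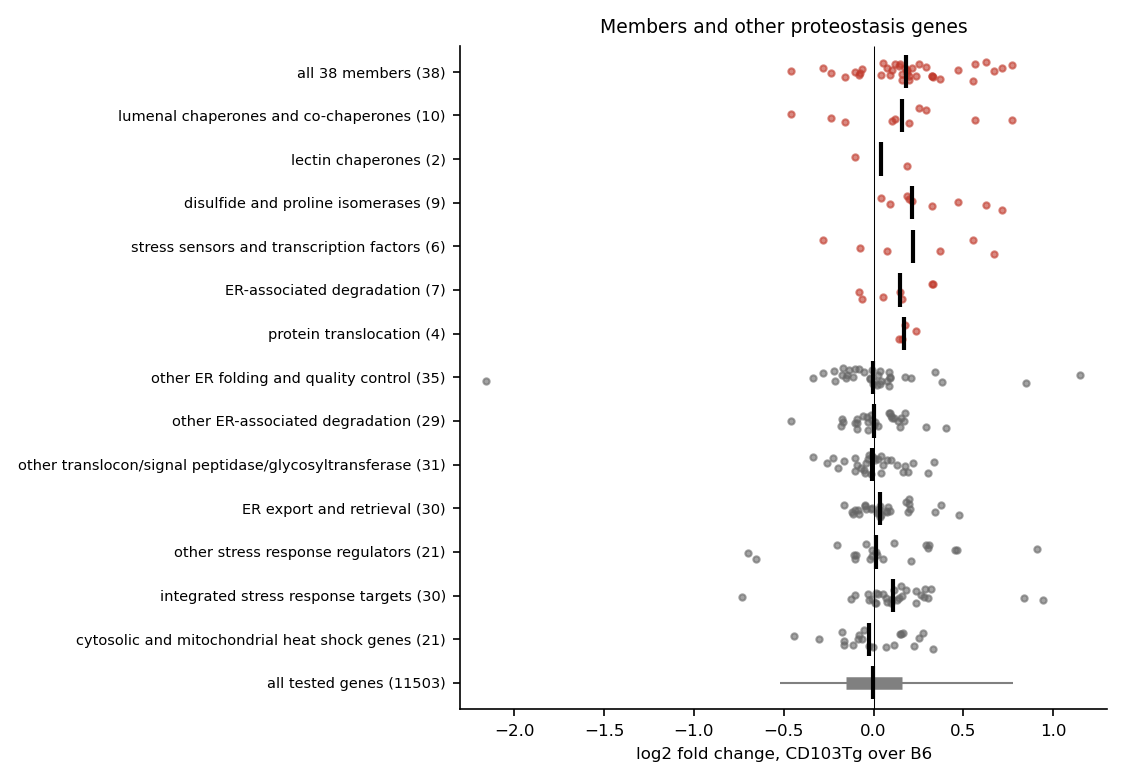
Log2 fold changes, CD103Tg over B6, of the genes in each list, with each point a gene and the black line the median, above the 25th to 75th percentile (grey bar) and 5th to 95th percentile (thin line) of all genes tested. The 38 genes have a median of 0.18, and the 4 lists of other ER genes together a median of 0.01.

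Plasma cells, which hold large amounts of ER, have markers that differed between the groups. Of 19 plasma cell markers 14 were in the table, with summed levels of 762.8 to 1017 CPM in CD103Tg and 999 to 1092 CPM in B6, most of it Ighm and Txndc5, which is one of the 38. Of the 12 tested, 9 (75%) rose and 2 (16.7%) fell, beside 17.4% higher and 13.8% lower over all genes tested. The 2 that fell were Ighm, at 382 ± 80.7 CPM in CD103Tg and 816 ± 40.4 CPM in B6 (-1.11 ± 0.12, adjusted p = 4.12e-05), and Pou2af1, a coactivator of B lineage cells, at 8.25 ± 0.32 CPM in CD103Tg and 15.2 ± 3.05 CPM in B6 (-0.79 ± 0.12, adjusted p = 0.000559). Without Txndc5, Ighm and Pou2af1, left out after their values were seen, the sum over the 11 remaining genes was 128.1, 266.3, 39.66 and 32.61 CPM in the CD103Tg libraries and 5.94, 6.32, 4.33 and 1.21 CPM in the B6 libraries. In this trimmed sum every CD103Tg library was higher, and CD103Tg replicate 2 was highest. Jchain, the joining chain of secreted antibodies, had 6.93, 25.1, 3.26 and 2.57 CPM in CD103Tg and 0.513, 0.312, 0.364 and 0.0854 CPM in B6. Mzb1, an ER cochaperone of antibody-secreting cells, was near 0, at 0.895, 1.80, 0.149 and 0.364 CPM in CD103Tg and 0, 0.117, 0.0192 and 0.0341 CPM in B6. The CD103Tg library with the most of these transcripts also had the most Hspa5, Xbp1 and Sdf2l1. The other libraries did not keep this order. CD103Tg replicate 1, next in the trimmed sum, had the least Hspa5 of its group (977 CPM) and less Sdf2l1 than replicate 4 (75.5 against 78.9 CPM). Its Xbp1 was next highest (96.3 CPM) and its Txndc5 was the highest (402 CPM). Without CD103Tg replicate 2, the log2 fold change was 0.50 for Hspa5 (adjusted p = 0.00603), 0.49 for Xbp1 (adjusted p = 0.00307), 0.73 for Sdf2l1 (adjusted p = 6.69e-05) and 0.65 for Txndc5 (adjusted p = 0.0027). In CD103Tg replicates 3 and 4, where the trimmed sum was lowest, Txndc5 was also lowest, at 335 and 269 CPM. As given above, every CD103Tg library lay above every B6 library for Hspa5, Xbp1, Sdf2l1 and Txndc5. The part of plasma cell RNA in their differences was not tested.

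Markers of other cells also moved with the groups. B cell markers, 12 of 14 in the table, summed to 165.8 to 189.9 CPM in CD103Tg and 83.4 to 103.8 CPM in B6, myeloid and dendritic cell markers, 18 of 20, to 152.7 to 240.3 CPM in CD103Tg and 87.1 to 164.8 CPM in B6, and natural killer cell markers, 11 of 12, to 685.5 to 935.2 CPM in CD103Tg and 467.2 to 516.7 CPM in B6. The B cell sum was mostly Cd22, at 87.0 ± 10.9 CPM in CD103Tg and 15.5 ± 1.28 CPM in B6, and Cd74, at 43.2 ± 7.83 CPM in CD103Tg and 10.2 ± 2.32 CPM in B6, with Cd79b at 32.3 ± 3.19 CPM in CD103Tg and 31.97 ± 1.82 CPM in B6. Of its 7 tested genes 4 (57.1%) rose and 1 (14.3%) fell, Ighd, at 6.65 ± 3.44 CPM in CD103Tg and 30.3 ± 8.72 CPM in B6. Of the 15 tested myeloid and dendritic cell markers, 8 (53.3%) rose and none fell, beside 17.4% higher and 13.8% lower over all genes tested. Those that rose included H2-Ab1, at 14.2 ± 2.63 CPM in CD103Tg and 2.87 ± 0.877 CPM in B6. Siglech also rose, at 1.97 ± 1.12 CPM in CD103Tg and 0.217 ± 0.161 CPM in B6. The natural killer sum was mostly Eomes and Prf1, which CD8 T cells also express. Of its 9 tested genes 7 (77.8%) rose and none fell, beside 17.4% higher and 13.8% lower over all genes tested. Klre1 was at 43.9 ± 5.38 CPM in CD103Tg and 13.6 ± 0.934 CPM in B6. Gzma was at 27.7 ± 14.7 CPM in CD103Tg and 3.84 ± 0.674 CPM in B6, and Klrb1c at 6.97 ± 1.57 CPM in CD103Tg and 3.55 ± 0.49 CPM in B6. The defining marker Ncr1 stayed at 0.183 to 0.613 CPM in CD103Tg and 0.345 to 0.66 CPM in B6, and Klra4, too low to be tested, was at 0 to 0.081 CPM in CD103Tg and 1.32 to 2.42 CPM in B6. CD4 T cell markers, 4 of 7, summed to 35.2 to 42.0 CPM in CD103Tg and 55.8 to 62.9 CPM in B6. This sum was mostly Icos, at 30.7 ± 2.99 CPM in CD103Tg and 47.4 ± 2.53 CPM in B6, and Bcl6. The others were too low to be tested. Zbtb7b had 0.115 to 0.407 CPM in CD103Tg and 0.409 to 1.43 CPM in B6. Cd40lg had 0.0372 to 0.0766 CPM in CD103Tg and 0.448 to 0.786 CPM in B6. Granulocyte markers, 2 of 8, were at most 3.73 CPM in CD103Tg and 2.50 CPM in B6, and of 10 stromal markers 1 was listed. Erythroid markers, 5 of 8, summed to 0.707 to 184.7 CPM in CD103Tg and 1.51 to 56.0 CPM in B6, highest in the library numbered 4 of each group. The part of these cells in the differences was not tested. Measured from the B6 mean, the median log2 difference of the 38 genes was 0.19, 0.21, 0.13 and 0.17 in the CD103Tg libraries and -0.02, 0.05, 0.06 and -0.07 in the B6 libraries, and that of the cell cycle list was 1.77, 1.99, 1.46 and 2.16 in CD103Tg and 0.19, 0.06, 0.04 and -0.25 in B6. Within CD103Tg, replicate 3 was lowest in both, replicate 2 was highest for the 38 genes and replicate 4 for the cell cycle list.

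**Figure D5:**
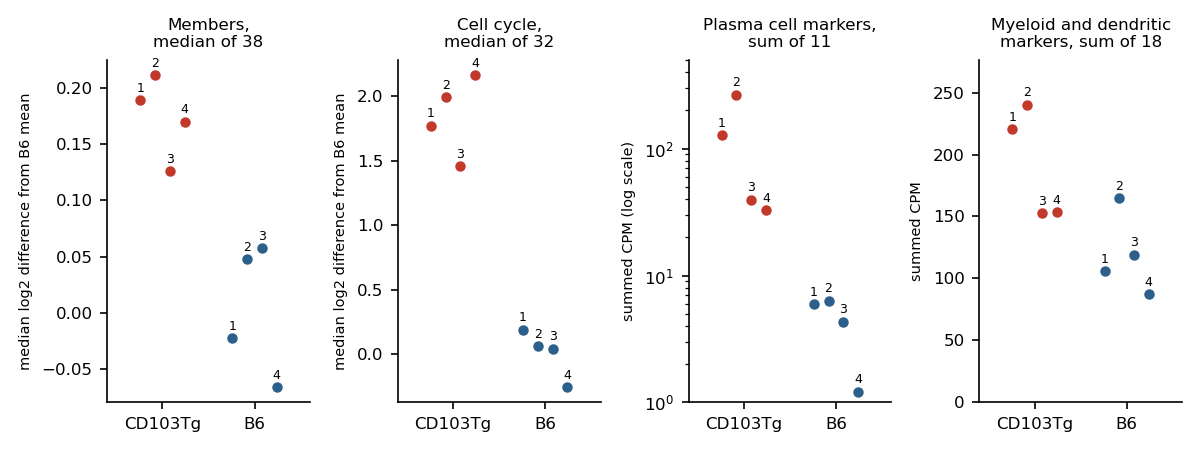
Values per library, CD103Tg left of B6, with the replicate number beside each point: the median log2 difference from the B6 mean over the 38 genes and over the cell cycle list, and the summed CPM of the 11 remaining plasma cell markers (log axis) and of the myeloid and dendritic cell markers. The medians over the 38 genes are 0.13 to 0.21 in CD103Tg and -0.07 to 0.06 in B6.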

How the data were processed

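Per the labels' protocols, column-purified RNA was amplified with SMART-Seq v4 and made into Nextera XT libraries, which mark no strand and carry no molecular identifiers. Tools named in the submitters' processing notes are RSEM, STAR 2.7.0f, cutadapt 1.18 and bcl2fastq 2.17, on GRCm38 (mm10). The authors deposited 1 table of a normalized gene-level signal, per the labels TMM-scaled CPM of filtered genes, with a filter rule not given in the sources used. The values are not counts. Estimated reads in steps of 0.01 of a read were recovered from them for depth and for a voom alternative, 63.0% to 65.2% being whole within 0.005 of a read.

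The 11503 genes that averaged 1 CPM or more entered a limma 3.58.1 fit (R 4.3.3, trended eBayes, two-sided) of log2(CPM + 1) on genotype alone, with Benjamini-Hochberg adjustment over all of them. Fold changes are CD103Tg over B6, and the pseudocount of 1 understates changes of low genes. A self-test of the fit was run on simulated data. All IDs matched GENCODE M21, whose GRCm38 exons gave lengths and overlaps. Promoter windows are RefSeq's, and 30 of the 38 genes matched by symbol and 2 by an older name. Python 3.11.15, numpy 2.4.6, scipy 1.17.1, pandas 2.3.3 and matplotlib 3.10.9 were used. Counting intervals were not computed, since replicate error was used throughout. The alternatives were other pseudocounts, filters, scalings and weights, voom, a replicate block, a Y-linked covariate and leaving out libraries.

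The genes, roles and lists were chosen with earlier results of these data known. The genes named are the 38, the genes of each other list with the smallest p (up to 4), Itgae, Cd247 and markers that moved with the groups. Mars was named after its values were seen.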

Additional observations from a re-analysis of the deposited data

Results flagged for a closer look

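In 2 of the 76 groups of 4 libraries formed by the 38 genes and 2 genotypes, 1 library stood apart from the other 3 by Dixon's criterion, which divides the gap to the nearest other library by the range of the group. Chance gives this in about 1 in 20 groups. Atf4 in CD103Tg replicate 2, at 53.5 CPM, was the lowest of its group, with a gap over range of 0.857. Edem2 in B6 replicate 4, at 65.7 CPM, was the lowest of its group, with a gap over range of 0.858. Neither gene was called.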

How the results depend on the processing

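Of the 20 calls among the 38 genes, 12 held under each of the 21 alternative settings (Hspa5, Sdf2l1, Dnajc10, Pdia3, Pdia6, P4hb, Txndc5, Fkbp2, Xbp1, Ddit3, Herpud1 and Ssr2), and 8 were lost without at least 1 single library. The 18 genes called higher became 14 with quantile normalization, 16 with equal totals and 17 with robust eBayes or array weights. They stayed 18 with other pseudocounts, no filter, median-of-ratios scaling and voom. With a minimum of 5 CPM the count was 17, since Ern1 fell below that level and was not tested. Leaving out 1 library gave 12 to 20 higher and 1 to 2 lower. Leaving out both libraries numbered 4 gave 13 higher and 3 lower. The count of genes called lower was 1 with no filter on low values and 1 with the Y-linked level as a covariate, since Dnajb9 missed the threshold (adjusted p = 0.0514 and 0.0526). Atf6 ranged from -0.0385 without B6 replicate 3, a reversed sign, to 0.136 without CD103Tg replicate 2, and was called in none of these fits. The cause was not tested. With the replicate number as a block, 19 genes were higher and 2 lower, with Atf4 (adjusted p = 0.00736), Syvn1 (0.00624) and Edem2 (0.0484) called, and Dnajb9 (0.0694) and Sec61a1 (0.053) lost. Same-numbered libraries had deviations correlated at 0.221, 0.35, -0.081 and 0.123, so the numbers were not taken to pair samples. The median of all genes moved by less than 0.1 under every scaling. Precision is limited by 4 libraries per group and not by depth.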
